A study of Mus musculus with 36 samples.

Results

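A set of 10 genes outside the core clock was followed over the day in liver and in white (inguinal) and brown fat of mice of 2 ages: Dtx4, Slc5a6, Osgin1, Coq10b, Tspan4, Tubb2b, Lonrf3, St3gal5, Sh3pxd2a and Fam110c. They are 10 of 19057 genes named on the array, were selected because they had been seen to cycle in 2 or 3 tissues of these same arrays, and are covered by 27 of 45281 probes. The data are 36 bead arrays (Illumina MouseWG-6 v2), and each tissue at each age and hour has 1 of them. The mice were male C57BL/6J, aged 5 months (young) or 24 months (old), fed chow freely, and all had spent the last 5 days in dim red light, which takes away the light cue to the clock. Tissues were taken at 0, 4, 8, 12, 16 and 20 h, so that each of the 6 groups of tissue and age holds 6 arrays. Per the design text the tissues come from the same animals, so arrays of the same age and hour share mice. Likeness between tissues is therefore not independent repetition, and an effect of the hour cannot be told apart from the mice taken at it. According to the labels 3 mice stand behind an array, without saying whether RNA was pooled, so the p-values below measure the spread between arrays and not between single mice. The clock time of 0 h is not stated in the labels, and peak times below are in labelled hours.

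Values are log2(intensity + 16) of the deposited normalized intensities, on which a probe at 0 reads 4 and the background threshold lies at 4.63. A rhythm was fitted as a cosine with a period of 24 h. Its amplitude is the distance from the mean to the peak on the log2 scale, its peak is the hour of the fitted maximum, and the fold from trough to peak follows from the amplitude on that scale. A gene counted as rhythmic in a tissue at an adjusted p under 0.05 (limma, Benjamini-Hochberg over all genes of the tissue). Since the genes were chosen on these rhythms, their amplitudes, peak times and counts of rhythmic tissues are given as a description, without a test, and the adjusted p serves only to name which combinations were called.

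Most cells keep time with a feedback loop in which the activator made of CLOCK and BMAL1 (encoded by Arntl) binds E-boxes and drives Per and Cry genes, whose proteins then shut it off. The nuclear receptors REV-ERB (Nr1d1 and Nr1d2) and ROR act on Arntl, and DBP and its relatives, made under the same loop, act on D-boxes of further genes. Through these outputs, and through feeding and hormones, metabolic genes of fat and liver cycle in step with the clock. The 10 genes sit outside that loop. Slc5a6 imports biotin, pantothenate and lipoate, Coq10b belongs to the coenzyme Q-binding proteins of mitochondria, and St3gal5 makes ganglioside GM3. Dtx4 is a ubiquitin ligase of the deltex family and Lonrf3 carries LON and RING domains. Osgin1 is induced by oxidative stress through NRF2. Tspan4 is a tetraspanin known from migrasomes, Tubb2b a beta tubulin, Sh3pxd2a (Tks5) a scaffold of podosomes and invadopodia, and Fam110c a protein associated with microtubules and the centrosome.

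The promoters of the genes whose upstream window holds a clock motif are shown first, because 3 of the 10 genes carry one. RefSeq promoter windows on GRCm38.p6 were found for 7 of the 10 genes, 9 windows in all, and the 250 bases before each start were searched on both strands. The E-box CACGTG, which reads alike on both strands, lay in 3 of 9 windows, of Coq10b, Lonrf3 and 1 of the Tspan4 starts. The D-box (TTATGTAA or TTATGCAA) lay in 1, that of Coq10b, where the plus strand reads TTACATAA. Of all 32851 windows of that length, 6.02% held the E-box and 1.50% the D-box. The windows span chr1:55052520-55052769 for Coq10b, chrX:36328159-36328408 for Lonrf3 and chr7:141476130-141476379 for Tspan4, all on the plus strand, and capitals mark the motifs.
Coq10b: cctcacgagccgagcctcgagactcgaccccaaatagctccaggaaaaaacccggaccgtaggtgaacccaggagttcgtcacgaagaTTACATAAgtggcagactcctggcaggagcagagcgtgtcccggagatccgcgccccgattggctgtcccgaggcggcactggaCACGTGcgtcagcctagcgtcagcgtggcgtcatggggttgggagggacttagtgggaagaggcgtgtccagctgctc
Lonrf3: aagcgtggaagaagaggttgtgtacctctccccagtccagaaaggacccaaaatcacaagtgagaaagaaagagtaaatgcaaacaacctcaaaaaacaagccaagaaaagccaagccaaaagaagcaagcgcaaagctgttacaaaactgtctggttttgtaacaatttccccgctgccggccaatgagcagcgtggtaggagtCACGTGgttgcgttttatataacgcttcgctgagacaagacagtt
Tspan4: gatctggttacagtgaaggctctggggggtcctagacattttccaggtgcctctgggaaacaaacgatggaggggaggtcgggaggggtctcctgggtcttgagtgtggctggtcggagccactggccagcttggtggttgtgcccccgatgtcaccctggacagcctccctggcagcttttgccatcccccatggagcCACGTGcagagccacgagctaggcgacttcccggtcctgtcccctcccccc
Counted from the start, the E-boxes begin at position -78 in Coq10b, -45 in Lonrf3 and -51 in Tspan4, and the D-box at -162 in Coq10b. The motifs CACGTT (in 3.85% of all windows), the ROR element core TAGGTCA or TGGGTCA (5.38%), the antioxidant element TGACNNNGC (10.2%), the heat shock core GAANNTTC (6.69%) and the cAMP element TGACGTCA (1.55%) were not found in these letters in any of the 9 windows. Dtx4, Tubb2b and Sh3pxd2a had no window in the table.

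The share of probes above background was 50.8 to 51.1% on every array. The hepatocyte list of 10 genes had a mean log2 level of at least 14.2 on every liver array and at most 7.67 on any fat array, and the brown adipocyte list of 9 genes was between 10.5 and 10.9 in brown fat and at most 7.88 elsewhere. Brown fat also carried skeletal muscle genes, with a list mean of 12.8 to 13.9 over 15 genes, against 7.49 to 14.4 in inguinal fat. In liver the same list varied widely between arrays. In young mice it stood at 9.58, 9.58 and 9.80 at 4, 8 and 12 h against 4.22, 4.38 and 6.04 at 0, 16 and 20 h. In old mice it stood at 9.68, 7.43 and 7.36 at 4, 8 and 16 h against 4.30, 4.96 and 4.40 at 0, 12 and 20 h. The ages went opposite ways at 12 and 16 h, and with 1 array per age and hour the hour cannot be told apart from the single array. The median amplitude of the 14 muscle genes tested there was 2.44, and 13 had an unadjusted p under 0.05 while 0 passed after adjustment (limma). The genes were read on the same arrays, so these 13 are not independent. The part of the muscle genes in the liver rhythms below was not tested. The old inguinal fat array at 4 h stood apart: its mean correlation with the other arrays of its tissue was 0.961 (all others 0.975 to 0.988). On it all 15 muscle genes were above background and 13 of them were the highest of the 12 inguinal arrays, at a list mean of 14.4 (7.49 to 13.2 on the other 11). Of 9 brown adipocyte genes, 5 were highest there too.

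Taken by tissue, 3 of 10 genes counted as rhythmic in inguinal fat, 9 of 9 tested in brown fat and 8 of 10 in liver, 20 of 29 combinations in all. Over all genes, 0.0569% of 15818 were called in inguinal fat, 0.221% of 15815 in brown fat and 2.02% of 15813 in liver. The set was selected on these calls, so nothing is read from the excess. Dtx4 and Slc5a6 cycled in all 3 tissues. Of 13609 genes measurable in all 3 tissues, 6 did so, and the named ones beside these were Arntl, Dbp and Cdkn1a. Osgin1 was called in both fats, and Coq10b, Tspan4, Tubb2b, Lonrf3, St3gal5 and Sh3pxd2a in brown fat and liver. Fam110c was called in none, against the choice of the set, and is given as a neighbour of the threshold. Osgin1 in inguinal fat lay just inside the threshold (adjusted p = 0.04999, limma) and Fam110c in inguinal fat just outside (0.0599). Without the old inguinal array at 4 h they changed places, with adjusted p-values of 0.0917 and 0.0405. The fitted amplitudes of the 20 combinations ran from 0.49 to 1.20, which is a change of 1.97 to 5.26-fold from trough to peak, and the median amplitude of all called genes was 0.97 in inguinal fat, 0.73 in brown fat and 0.54 in liver.

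**Figure D1:**
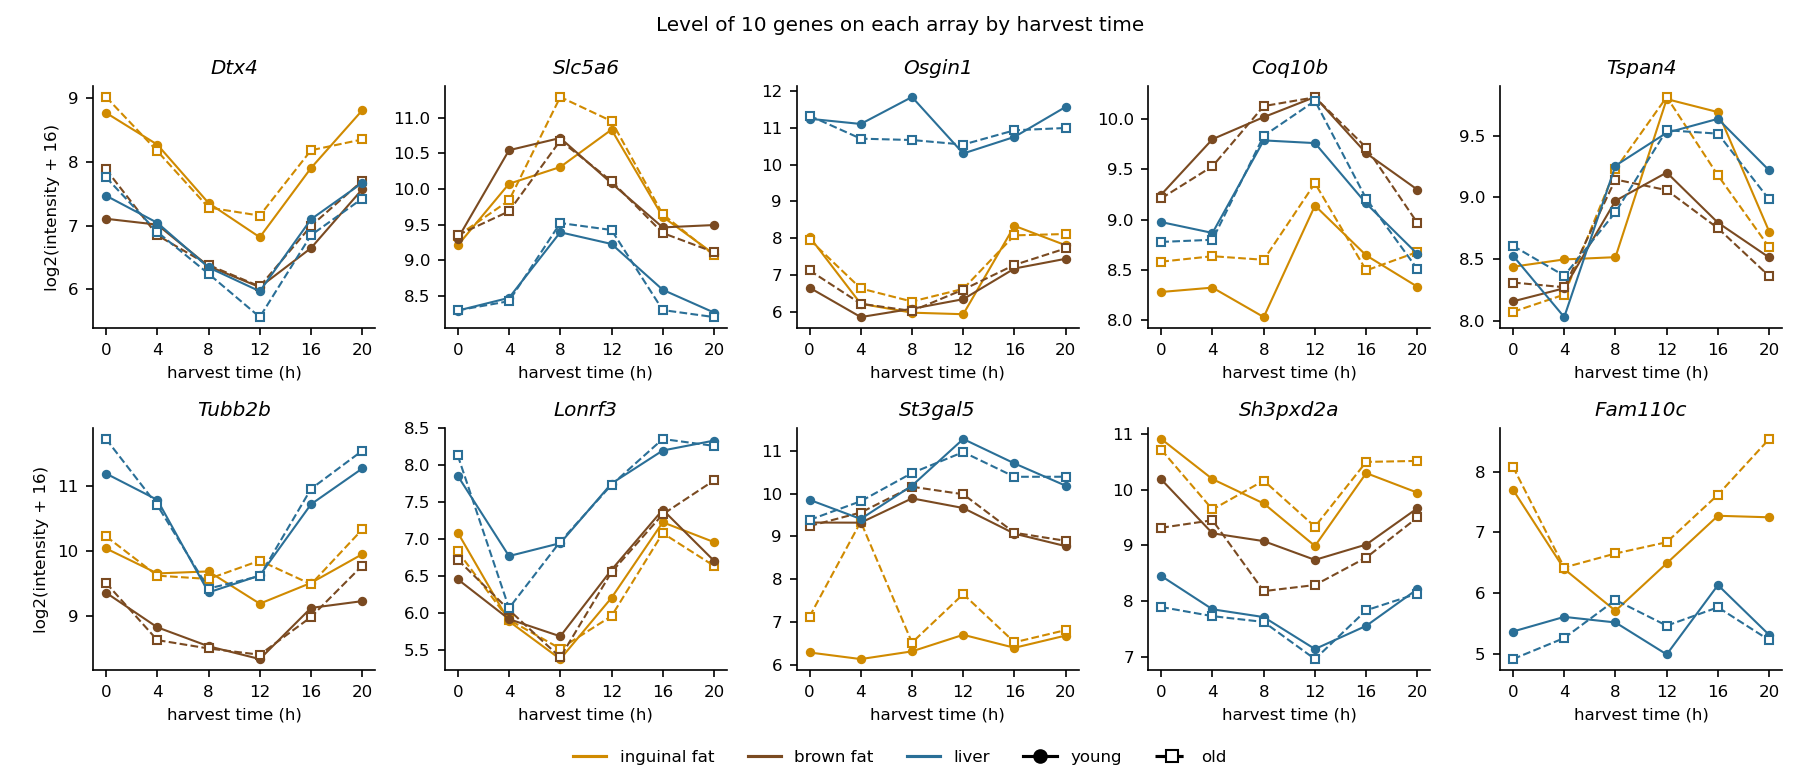
Level of each gene, as log2(intensity + 16), on each of the 36 arrays against harvest time in hours, with inguinal fat in yellow, brown fat in brown, liver in blue, young as filled circles and old as open squares (1 array per point). Vertical scales differ between panels, Coq10b in liver is read from another probe than in the fats, and Fam110c in brown fat is left out as it was above background on only 5 of 12 arrays. Young and old curves run together for most genes, and the old inguinal fat array at 4 h is the high point of St3gal5 at 9.34.

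Slc5a6, the importer of biotin and pantothenate, was high at 8 and 12 h in every tissue. In young brown fat it was high at 4 h too (10.55, against 10.08 at 12 h). In inguinal fat the young arrays ran from 9.09 at 20 h to 10.83 at 12 h (median 9.84) and the old from 9.07 at 20 h to 11.29 at 8 h (median 9.74). In brown fat the young arrays lay between 9.31 at 0 h and 10.72 at 8 h (median 9.79) and the old between 9.12 at 20 h and 10.68 at 8 h (median 9.54). The 8 h or 12 h array was the highest in all 6 groups. In liver the range was 8.27 to 9.40 in young mice (median 8.53) and 8.21 to 9.52 in old (median 8.37), again with 8 h highest and 20 h lowest. The fitted amplitude was 0.97 ± 0.11 (SE, n = 12 arrays) in inguinal fat, 0.71 ± 0.10 in brown fat and 0.65 ± 0.09 in liver. The peaks came at 9.50 ± 0.43 h, 8.11 ± 0.54 h and 9.80 ± 0.55 h, 0.37 and 1.26 h before and 0.99 h after Dbp in the same tissue.

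Coq10b peaked close to Slc5a6. In brown fat it was highest at 12 h in both ages (10.22 young, 10.21 old) and lowest at 0 h in young (9.25) and at 20 h in old mice (8.97). In liver the young arrays ran from 8.66 at 20 h to 9.79 at 8 h and the old from 8.51 at 20 h to 10.18 at 12 h. The arrays at 8 and 12 h exceeded those at all other hours in brown fat and in liver, in both ages. The amplitude was 0.56 ± 0.07 in brown fat, with a peak at 10.1 ± 0.5 h, and 0.68 ± 0.10 in liver, with a peak at 10.5 ± 0.6 h. In inguinal fat the profile was narrower: the 12 h array was highest in both ages, at 9.14 in young and 9.36 in old mice, and the others lay between 8.03 and 8.68. The fitted amplitude there was 0.27 ± 0.12 and was not called, and without the 12 h arrays it was 0.08.

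St3gal5, the GM3 synthase, peaked at different hours in brown fat and liver. In brown fat the values from 0 to 20 h were 9.33, 9.32, 9.89, 9.67, 9.07 and 8.77 in young mice and 9.24, 9.56, 10.16, 9.99, 9.09 and 8.90 in old mice. In liver they were 9.86, 9.41, 10.19, 11.28, 10.71 and 10.19 in young and 9.39, 9.82, 10.48, 10.97, 10.40 and 10.40 in old mice. The highest array was the one at 8 h in brown fat and at 12 h in liver, in both ages, and brown fat was lowest at 20 h, when liver was still above its own values at 0 and 4 h. The fitted peak was at 8.35 ± 0.57 h in brown fat and 13.4 ± 0.6 h in liver, with amplitudes of 0.55 ± 0.08 and 0.71 ± 0.11. In inguinal fat the young arrays were flat, between 6.13 and 6.70, and the old ranged from 6.51 to 9.34, the highest being the array at 4 h that carried the muscle genes.

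Dtx4, the deltex ubiquitin ligase, ran opposite to Slc5a6. It was lowest at 12 h in all 6 groups and highest at 20 h in the young and at 0 h in the old of each tissue. The fitted peaks did not share that order: old minus young was -0.21 ± 0.80 h in inguinal fat, -0.42 ± 0.93 h in brown fat and 0.67 ± 0.79 h in liver. In inguinal fat the young arrays spanned 6.82 to 8.81 (median 8.09) and the old 7.16 to 9.02 (median 8.18). In brown fat the young spanned 6.04 to 7.57 (median 6.83) and the old 6.05 to 7.88 (median 6.92), and in liver the young 5.97 to 7.67 (median 7.07) and the old 5.57 to 7.76 (median 6.88). Its peaks lay close together, at 22.7 ± 0.37 h in inguinal fat, 22.3 ± 0.45 h in brown fat and 22.4 ± 0.39 h in liver, and the amplitudes were 0.93 ± 0.09, 0.79 ± 0.09 and 0.90 ± 0.09. The peak followed that of Arntl by 0.20 h in inguinal fat, 0.22 h in brown fat and 1.25 h in liver.

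Lonrf3, the LON and RING protein, had its maximum a few hours earlier. In the fats it was lowest at 8 h in each of the 4 groups, at 5.38 and 5.52 in young and old inguinal fat and at 5.69 and 5.40 in young and old brown fat. The highest arrays there were at 16 h (7.23, 7.08 and 7.40), except in old brown fat, where 20 h was highest at 7.79. In liver the trough came at 4 h (6.77 young, 6.07 old) and the highest values were 8.33 at 20 h in young and 8.35 at 16 h in old mice. The peaks were at 18.3 ± 0.5 h in brown fat and 18.0 ± 0.5 h in liver, with amplitudes of 0.89 ± 0.12 and 0.92 ± 0.13. In inguinal fat the amplitude was 0.81 ± 0.11 and the peak at 19.5 ± 0.5 h, and it was not called.

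Osgin1, the gene of the oxidative stress response, was low from 4 to 12 h and high from 16 to 0 h in both fats, without overlap between these hours. In inguinal fat the range was 5.93 to 8.33 in young (median 7.01) and 6.27 to 8.11 in old mice (median 7.29). In brown fat it was 5.85 to 7.44 in young (median 6.49) and 6.02 to 7.72 in old mice (median 6.86). The amplitudes were 1.20 ± 0.15 and 0.81 ± 0.07 and the peaks 19.9 ± 0.48 h and 18.9 ± 0.35 h. In liver the same probe was far brighter, between 10.30 and 11.84 in young and 10.55 and 11.33 in old mice, and the fitted amplitude was 0.30 ± 0.15 and was not called. The highest liver array was at 8 h in young and at 0 h in old mice, while 12 h was the lowest in both.

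Among the membrane and cytoskeletal genes, Tspan4 peaked at earlier labelled hours than Tubb2b and Sh3pxd2a. Tspan4, the tetraspanin, ran from 8.16 to 9.20 in young and 8.27 to 9.14 in old brown fat, and from 8.03 to 9.64 in young and 8.36 to 9.54 in old liver. The peak was at 11.7 ± 0.6 h in brown fat and 14.4 ± 0.4 h in liver, with amplitudes of 0.49 ± 0.07 and 0.68 ± 0.08. The liver arrays at 16 h, 9.64 and 9.52, were near the maximum, whereas brown fat at 16 h lay at 8.79 and 8.75. Inguinal fat ran from 8.44 to 9.80 in young and 8.07 to 9.81 in old mice, highest at 12 h in both (amplitude 0.77 ± 0.11, peak 13.3 ± 0.5 h, not called).

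Tubb2b, a beta tubulin, swung most in liver, with young arrays between 9.37 (8 h) and 11.27 (20 h) and old ones between 9.43 (8 h) and 11.72 (0 h). Brown fat spanned 8.34 to 9.36 (young) and 8.41 to 9.78 (old), lowest at 12 h in both. The amplitude was 1.11 ± 0.09 in liver, 0.60 ± 0.08 in brown fat and 0.33 ± 0.09 in inguinal fat (not called there), and the peaks were at 21.8 ± 0.3 h, 21.4 ± 0.5 h and 22.7 ± 1.1 h. The liver groups of both ages were low only at 8 and 12 h, below 9.64, and at or above 10.70 at all other hours.

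Sh3pxd2a, the podosome scaffold, was lowest at 12 h in 5 of 6 groups, and at 8 h in old brown fat. Brown fat spanned 8.74 to 10.18 (young) and 8.18 to 9.50 (old), and liver 7.14 to 8.45 (young) and 6.96 to 8.14 (old). Its peaks were at 23.1 ± 0.6 h and 23.1 ± 0.7 h, with amplitudes of 0.66 ± 0.10 and 0.49 ± 0.09. In inguinal fat, at 8.99 to 10.91 in young and 9.34 to 10.72 in old mice, the fit gave an amplitude of 0.56 ± 0.16 and no call. Fam110c, the microtubule-associated gene, ran from 5.71 at 8 h to 7.70 at 0 h in young inguinal fat, and in old inguinal fat from 6.42 at 4 h to 8.54 at 20 h. Its amplitude there was 0.95 ± 0.13 and its peak at 20.2 ± 0.5 h. In liver it lay between 4.91 and 6.13 with no such pattern (amplitude 0.19 ± 0.14), and in brown fat it was above background on 5 of 12 arrays, so no rhythm was fitted.

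**Figure D2:**
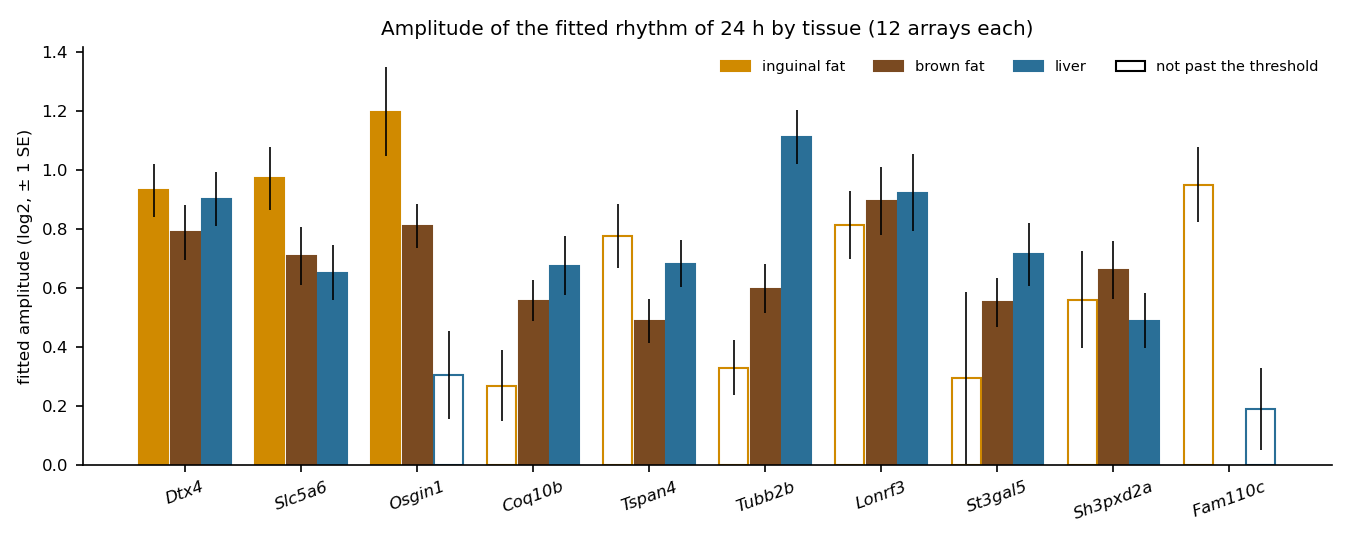
Fitted amplitude on the log2 scale of each gene in each tissue over 12 arrays, both ages together, with 1 SE as the error bar; filled bars passed an adjusted p of 0.05 and open bars did not. Osgin1 is tallest in inguinal fat at 1.20 and low in liver at 0.30, and Tubb2b is tallest in liver at 1.11.

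In labelled hours, the called peaks of 4 genes (Slc5a6, St3gal5, Coq10b and Tspan4) lay between 8.11 and 14.4 h, and those of 5 (Lonrf3, Osgin1, Tubb2b, Dtx4 and Sh3pxd2a) between 18.0 and 23.1 h. For reference, Nr1d1 peaked at 5.02 to 6.79 h in the 3 tissues, Dbp at 8.81 to 9.87 h, Per2 at 13.1 to 13.4 h and Arntl at 21.2 to 22.5 h. Per2 did not pass the threshold in inguinal fat, nor did Nr1d1. Coq10b came 0.73 h after Dbp in brown fat and 1.72 h after it in liver. St3gal5 came 1.02 h before Dbp in brown fat and within 0.29 h of Per2 in liver. Osgin1 came 2.55 h before Arntl in inguinal fat and 3.18 h before it in brown fat, and Lonrf3 3.86 h before Arntl in brown fat and 3.17 h in liver. Tubb2b stayed within 0.73 h of Arntl in brown fat and liver.

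Whether a rhythm differed between tissues was tested on the differences between arrays of the same age and hour. The genes were chosen on the rhythms that enter these differences, so the p-values of members are given as a description. Of the 13 pairs in which a gene was rhythmic in both tissues, 1 passed: St3gal5 between liver and brown fat. The cosine of the liver minus brown fat difference had an amplitude of 0.79 ± 0.11 (adjusted p = 0.0276, limma), and the liver peak came 5.06 ± 0.81 h later, while the amplitudes differed by 0.16 ± 0.13. Over all genes, 0.307% of 14343 passed this test between liver and brown fat, 0.0069% of 14497 between brown and inguinal fat, and 0.0213% of 14056 between liver and inguinal fat. The St3gal5 call was lost when any 1 harvest time was left out, with adjusted p-values from 0.0625 to 0.141 and amplitudes of the difference from 0.73 to 0.89, and when the probes were averaged (0.0513). The next lowest of the 13 was Tspan4 between liver and brown fat, where the liver peak was 2.71 ± 0.73 h later (adjusted p of the joint test of amplitude and phase 0.0912, limma). Osgin1 between liver and brown fat was not among the 13, as it was not called in liver. Its difference had an amplitude of 0.80 ± 0.13 (adjusted p = 0.0539, limma). The amplitude of Tubb2b was 0.51 ± 0.12 higher in liver than in brown fat (adjusted p of the joint test 0.142, limma). The SEs of these differences in peak and amplitude take the tissues as independent, while the joint test used the matched arrays. In 11 of the 13 pairs the peaks were less than 2 h apart, Dtx4 at -0.35 ± 0.58 h from inguinal to brown fat, -0.27 ± 0.54 h from inguinal fat to liver and 0.08 ± 0.59 h from brown fat to liver. A missed threshold does not show that the rhythms were equal.

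**Figure D3:**
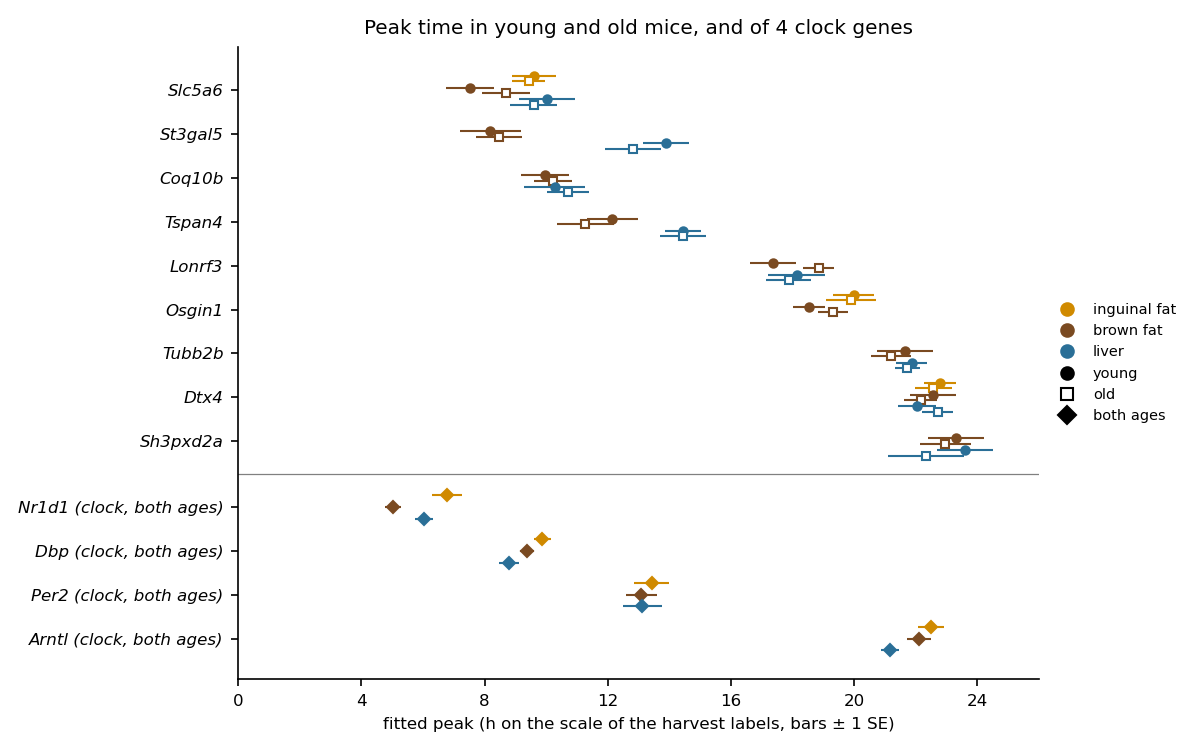
Fitted peak in hours, with 1 SE as the bar, of the 9 genes called in at least 1 tissue, shown only for tissues where the rhythm passed the threshold, with young as filled circles and old as open squares; below the line, 4 clock genes with both ages together as diamonds. St3gal5 lies near 8 h in brown fat and near 13 h in liver, and Dtx4 and Arntl lie near 22 h in all 3 tissues.

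No difference in the rhythms of these genes between ages was detected. The interaction of age with the rhythm passed for 0 of the 29 combinations (limma, adjusted p from 0.827 to 0.990), and 0 reached an unadjusted p under 0.05, the lowest being 0.0922 for Lonrf3 in brown fat. Over all genes it passed for 0% in each tissue, with 724, 749 and 1243 genes under an unadjusted 0.05 in inguinal fat, brown fat and liver. In the 20 rhythmic combinations, the old peak minus the young peak ranged from -1.28 h (Sh3pxd2a in liver) to 1.47 h (Lonrf3 in brown fat), with SEs of 0.65 to 1.52 h. The median size of the shift was 0.43 h, 16 of the 20 were smaller than 1 h, and 0 exceeded 2 SE. The amplitude was higher in old mice in 13 of the 20, by up to 0.36 ± 0.20 (Lonrf3 in brown fat, 1.09 against 0.73), and lower in the others, with a difference down to -0.24 ± 0.32 (Osgin1 in inguinal fat). By tissue it was higher in old mice in 1 of 3 in inguinal fat, 7 of 9 in brown fat and 5 of 8 in liver. With 6 arrays per age, shifts of this size cannot be told from none.

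The mean level over the 6 harvest times was also compared between ages, a comparison the choice of genes did not use. Old and young arrays were paired by harvest time. Of the members, 0 of 10 passed in inguinal fat, 0 of 9 in brown fat and 0 of 10 in liver, where 4.24, 0.24 and 4.02% of all genes did (limma). At an unadjusted p under 0.05 there were 4 of 29, 3 in inguinal fat and 1 in brown fat, where 24% and 6.99% of all genes were (18.1% in liver), so the members did not stand out. Fam110c was higher in old inguinal fat at 6 of 6 harvest times, with a mean of 7.36 against 6.80, a difference of 0.55 ± 0.17 (SE; adjusted p = 0.0945, limma). St3gal5 was higher in old inguinal fat at 6 of 6 times too, by 0.91 ± 0.39 (adjusted p = 0.198), and by 0.45 without the 4 h arrays. Coq10b there differed by 0.27 ± 0.11 (5 of 6 times, adjusted p = 0.176), and Sh3pxd2a in brown fat by -0.40 ± 0.16 (higher in old at 1 of 6 times, adjusted p = 0.706). The other 25 differences lay between -0.27 and 0.24, with 95% intervals reaching from -0.70 to 0.56. Markers of other cells also differed with age in inguinal fat. The epithelium and gland list of 11 genes stood at 6.15 to 9.06 on the old and 4.62 to 6.80 on the young arrays, with 3 of 10 tested called higher in old mice, and the list of T, NK and B cells stood at 7.31 to 8.50 against 8.32 to 9.59, with 9 of 12 called lower. Their part in these differences was not tested, and neither was that of the skeletal muscle genes, highest on the old array at 4 h. Leaving out that hour does not test it, since the muscle list ran from 7.49 to 13.2 on the other inguinal arrays.

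**Figure D4:**
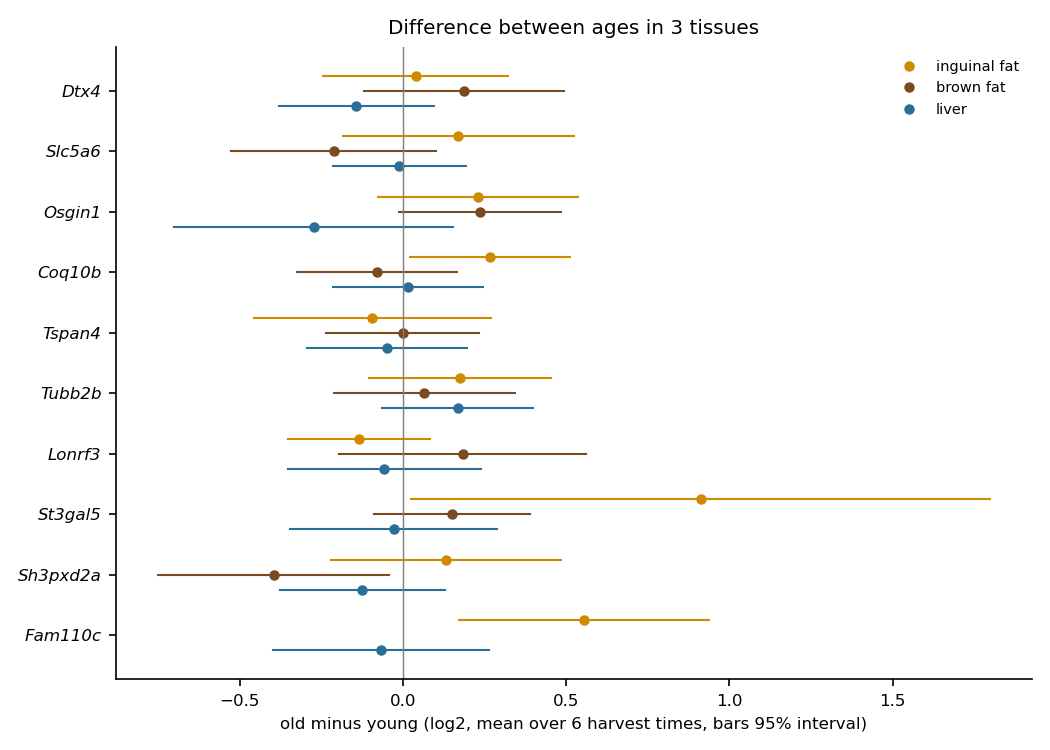
Old minus young on the log2 scale, mean over 6 harvest times, for each gene in inguinal fat (yellow), brown fat (brown) and liver (blue), with the 95% interval as the bar. Most intervals span 0; Fam110c and St3gal5 in inguinal fat lie above it at 0.55 and 0.91, and St3gal5 has the widest interval.

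Between tissues the age effects differed for 0 of the 28 combinations tested (limma, adjusted p from 0.0848 to 0.991), of which 6 were under an unadjusted 0.05, as were 14.9% of all genes between the fats, 23.9% between liver and inguinal fat and 12% between liver and brown fat. Over all genes, 0.0207% passed between brown and inguinal fat, 6.82% between liver and inguinal fat and 0.209% between liver and brown fat.

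The level of these genes differed strongly between tissues, as did that of most genes on the array: 73.2% of all genes differed between brown and inguinal fat, 80.6% between liver and inguinal fat and 71.3% between liver and brown fat (limma). Among the members, 7 of 10, 9 of 10 and 9 of 10 passed, shares not far from these backgrounds. This comparison took genes above background in either tissue of a pair, so genes dim in the other tissue entered through the brighter one. That raises the shares of all genes, and among the members it applies to Fam110c in brown fat (above background on 5 of 12 arrays). In whole tissues, fewer cells of a type and less RNA per cell cannot be told apart. Osgin1 was highest in liver, at 11.0 ± 0.44 (SD, n = 12), against 7.16 ± 0.96 in inguinal and 6.70 ± 0.62 in brown fat, so liver exceeded brown fat by 4.30 ± 0.17 (SE) and inguinal fat by 3.84 ± 0.24, on 12 of 12 matched arrays each. St3gal5 followed the order liver (10.3 ± 0.58), brown fat (9.42 ± 0.44) and inguinal fat (6.87 ± 0.88). Liver exceeded inguinal fat by 3.39 ± 0.25, and by 3.65 without the old inguinal array at 4 h. Lonrf3 in liver exceeded inguinal fat by 1.22 ± 0.13 and brown fat by 1.06 ± 0.13, while the 2 fats did not differ beyond their spread (0.16 ± 0.12).

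Sh3pxd2a and Fam110c were highest in inguinal fat. Sh3pxd2a stood at 10.1 ± 0.57 in inguinal fat, 9.12 ± 0.57 in brown fat and 7.76 ± 0.42 in liver, and each step passed. Fam110c stood at 7.08 ± 0.81 in inguinal fat, 5.45 ± 0.36 in liver and 4.60 in brown fat, where most arrays were below background, and liver exceeded brown fat by 0.86 ± 0.14. Dtx4 was higher in inguinal fat (8.01 ± 0.71) than in brown fat (6.88 ± 0.62) and liver (6.86 ± 0.70), whose levels differed by -0.02 ± 0.07. Slc5a6 did not differ beyond its spread between the 2 fats (-0.11 ± 0.11) and lower in liver, where the difference from brown fat was -1.12 ± 0.10. Of the 10 genes Tspan4 differed least between tissues: liver exceeded brown fat by 0.36 ± 0.10, and the other differences did not pass. Coq10b was higher in brown than in inguinal fat by 1.07 ± 0.11 and Tubb2b was lower, with a difference of -0.82 ± 0.09, both in the same direction on 12 of 12 matched arrays.

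The other probes of these genes bear on what was read. Both probes of Dtx4 gave the same course, with peaks at 22.7, 22.2 and 22.5 h in inguinal fat, brown fat and liver on the second one, and both probes of St3gal5 did so as well (8.56 h in brown fat and 13.0 h in liver on the second). The 2 bright probes of Coq10b peaked at 10.02 and 10.11 h in brown fat and at 10.54 and 10.32 h in liver. A dim probe of Coq10b peaked at 10.4 ± 0.7 h in brown fat, with an amplitude of 0.45 ± 0.08. In liver it was flat (0.02 ± 0.07) at a mean of 4.67, near background. For Tspan4, a dimmer probe followed the leading one, with peaks at 12.6, 11.4 and 15.1 h. Another ran the opposite way in liver, with an amplitude of 0.33 ± 0.08 and a peak at 1.71 ± 0.90 h. In the fats that probe also peaked far from the leading one, at smaller amplitudes. It gave 0.23 ± 0.11 and 22.5 ± 1.9 h in brown fat, and 0.14 ± 0.07 and 3.15 ± 1.84 h in inguinal fat.

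For Tubb2b the rhythm came from the leading probe, ILMN_2588051, while the other measurable probes had amplitudes of 0.07 to 0.38. The probe ILMN_1377919, also above background on 12 of 12 arrays of each tissue, had amplitudes of 0.24 ± 0.15, 0.16 ± 0.19 and 0.21 ± 0.17 in inguinal fat, brown fat and liver. Its mean level was 9.09 in inguinal fat and 5.27 in liver, whereas the leading probe was at its highest in liver (10.58). Tubb2a, a near-identical beta tubulin, was rhythmic in liver on its own probe, with an amplitude of 1.05 ± 0.14 and a peak at 21.6 ± 0.5 h, next to 1.11 and 21.8 h for the leading Tubb2b probe. The arrays do not show which of these transcripts the leading probe reports, so its values are uncertain as a reading of Tubb2b. The leading probe of Sh3pxd2a has no transcript accession in the annotation, and a dimmer probe of the gene peaked at 11.2 ± 1.0 h in inguinal fat and had amplitudes of 0.12 ± 0.09 in brown fat and 0.22 ± 0.13 in liver. The second measurable Lonrf3 probe was near background, with means of 4.54 to 5.07 and amplitudes of at most 0.19. Slc5a6, Osgin1 and Fam110c have 1 probe each.

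**Figure D5:**
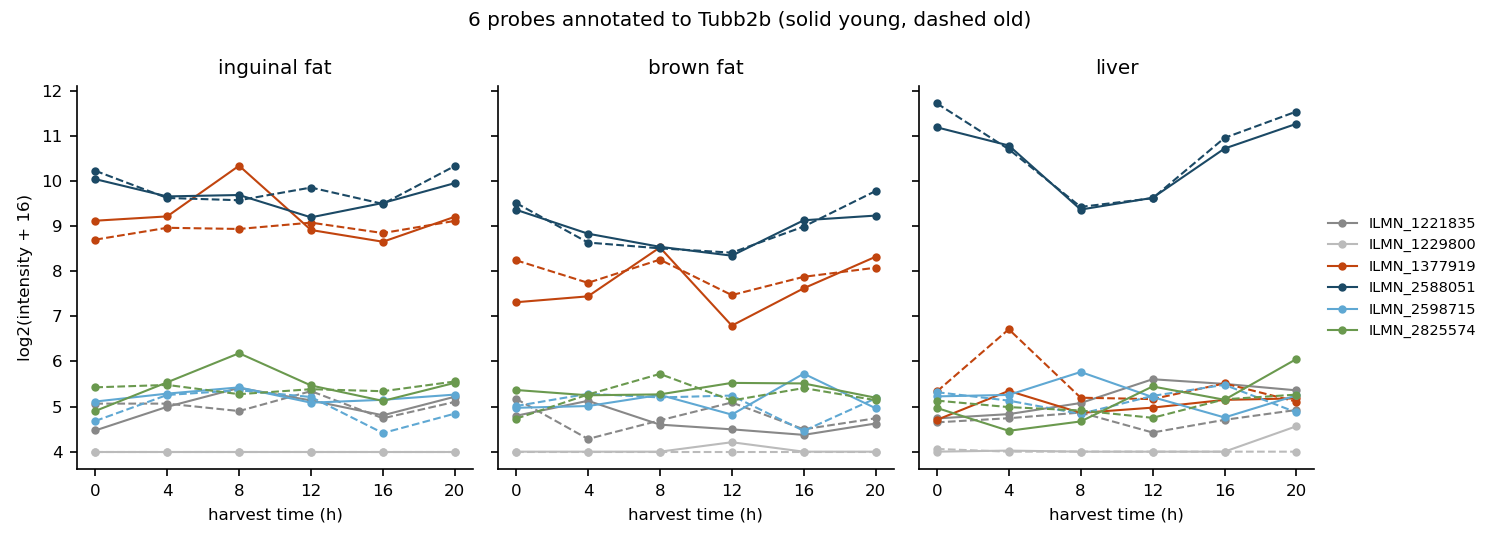
Level, as log2(intensity + 16), of the 6 probes annotated to Tubb2b on each array against harvest time in hours, in inguinal fat, brown fat and liver, solid lines for young and dashed for old mice. ILMN_2588051 dips at 8 and 12 h in liver, and ILMN_1377919, with a mean of 9.09 in inguinal fat and 5.27 in liver, shows no such dip.

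Relatives of the members were looked up in 10 lists of genes that share a family, a cofactor or a structure with them. Of these relatives, 0 of 139 tested were rhythmic in inguinal fat, 0 of 138 in brown fat and 7 of 134 in liver, next to 0.0569, 0.221 and 2.02% of all genes (limma). At an unadjusted p under 0.05 there were 8, 15 and 38, beside 5.84, 10.8 and 16.8% of all genes. In the vitamin list 2 of 16 were rhythmic in liver, namely Slc19a1, which carries reduced folate, with an amplitude of 0.49 ± 0.09 and a peak at 11.5 ± 0.7 h, and Pank3, the kinase that commits pantothenate to coenzyme A, at 0.86 ± 0.16 and 12.0 ± 0.7 h. In the coenzyme Q list 1 of 13 was rhythmic in liver, Coq8a, whose peak at 21.6 ± 0.4 h lay opposite to that of Coq10b. Among tubulins and their folding factors 2 of 17 were, Tubb2a and Tubb4b, the latter with an amplitude of 0.40 ± 0.06 and a peak at 0.15 ± 0.54 h. Lonp2, the peroxisomal LON protease, was 1 of 5 in its list (amplitude 0.29 ± 0.05) and the sialidase Neu2 1 of 17 in the ganglioside list (0.48 ± 0.09). None of the deltex and Notch genes (12 tested in liver), NRF2 targets (15), tetraspanins (19), podosome scaffolds (14) or FAM110 relatives (6) passed in any tissue.

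Lists of clock, glucocorticoid-responsive and heat shock genes were counted in the same way, and which cue drives them here was not tested. Of the clock list, 2 of 15 were rhythmic in inguinal fat, 6 of 15 in brown fat and 12 of 15 in liver. Of all genes, 0.0569, 0.221 and 2.02% were. Of the glucocorticoid-responsive list 2 of 14, 1 of 14 and 4 of 15 were, namely Fkbp5 and Cdkn1a in inguinal fat, Cdkn1a in brown fat, and Fkbp5, Cdkn1a, Pdk4 and Per1 in liver. At an unadjusted p under 0.05 (limma) there were 11, 12 and 13 in the clock list and 5, 8 and 7 in this one. Of all genes, 5.84, 10.8 and 16.8% were under it. Of the heat shock list 0 of 13 were rhythmic in each tissue (limma), with 2, 2 and 3 under an unadjusted 0.05 and median amplitudes of 0.21, 0.21 and 0.26 in inguinal fat, brown fat and liver.

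The genes whose course was most like each member were found by Pearson's r over the 36 arrays, after the mean of each tissue and age had been subtracted, among 10540 named genes above background in all tissues. The arrays share harvest hours and a common normalization, so these values describe likeness only. Dtx4 was most like Arntl (r = 0.90), Dapk1 (0.88) and Leo1 (0.86), and Tubb2b like Arntl (0.87), Clpx (0.79) and Dapk1 (0.79). Slc5a6 was most like Dbp (0.86), Ciart (0.85) and Pard6g (0.80), and Coq10b like Nrg4 (0.85), Ciart (0.84) and Mtss1 (0.84). Tspan4 was most like Mycl (0.84), Per2 (0.84) and Cgrrf1 (0.83). For the others the closest were Yap1, Fzd5 and Lbp (0.76, 0.75 and 0.74) for Osgin1, Parp16, Trp53inp2 and Ncbp2 (0.81, 0.77 and 0.76) for Lonrf3, Fbxo31, Prmt7 and Tbrg4 (0.80, 0.79 and 0.78) for St3gal5, and Rnf144a, Rtn4rl1 and Gtf2ird1 (0.86, 0.83 and 0.80) for Sh3pxd2a. Fam110c, compared over the 24 arrays of inguinal fat and liver, was closest to Ppp1r3d, Rbm28 and Zfyve21 (0.84, 0.78 and 0.77).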

How the data were processed

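The deposited table holds linear probe intensity values from BeadStudio, per the submitters' processing notes, with a background subtracted, since 28.7 to 29.1% of values per array lay below 0. The distributions of the arrays were nearly alike, with medians of 9.38 to 9.59, so levels are relative within an array. A table of scanner signals with 144 columns could not be mapped to samples and was not used, nor could chips, over which the design text says samples were spread randomly. Each intensity, taken as 0 if negative, was raised by 16 before log2. A probe counted as above background over 8.80, the 95% point of noise estimated from the negative values (SD 5.35), and passed in a tissue with at least 6 of 12 such arrays. Fits within a tissue used probes passing there. Between tissues, differences of rhythm and of age effect used probes passing in both, and differences of level used probes passing in either. A gene was read from its passing probe with the highest mean. The fits used limma 3.58.1 in R 4.3.3 and were tested on simulated data: rhythm, its interaction with age, age with arrays paired by labelled harvest time as a block, and tissue differences on arrays matched by age and hour. P-values were Benjamini-Hochberg adjusted over all genes. The treatment protocol gives an interval of 3 h and the labels 4 h; the labels were used. Alternatives were other offsets and floors, no filter, mean of probes, harvest time as a factor, other variance models and each harvest time left out. The members, gene lists and motifs were chosen with earlier results of these data known. Named genes were all members, up to 4 rhythmic genes per list and tissue, 4 clock references and the 3 genes most like each member. The number of arrays limits the precision.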

Additional observations from a re-analysis of the deposited data

Results flagged for a closer look

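Among 58 groups of 6 arrays, 1 held a value whose gap to its neighbour exceeded Dixon's limit. The 6 arrays of a group are different harvest hours of a gene chosen for its rhythm. The nominal rate of 1 in 20 for repeats of a single condition therefore does not apply, and the limit served only to pick values for a closer look. The value picked was Coq10b in old inguinal fat at 12 h, at 9.36, while the other 5 arrays of the group lay between 8.50 and 8.68. The young inguinal array at 12 h was also the highest of its group, at 9.14.

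The St3gal5 rhythm differed between liver and brown fat in the joint test of amplitude and phase (adjusted p = 0.0276, limma), with a fitted liver peak 5.06 h later. The gene was chosen on its rhythms in these arrays, so the p-value is a description. The call was lost whenever a harvest time was left out (adjusted p from 0.0625 to 0.141, limma) and with averaged probes (0.0513).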

How the results depend on the processing

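The count of members called rhythmic depended on the processing. It was 3 in inguinal fat, 9 in brown fat and 8 in liver, and became 0 in inguinal and 4 in brown fat with a floor of 16 in place of the offset; 0, 2 and 3 without the filter on dim probes; 5 in brown fat and 4 in liver with the mean of the passing probes; and 0, 0 and 5 with harvest time as a factor. Leaving out 1 harvest time gave 0 to 2 members in inguinal fat, 1 to 7 in brown fat and 2 to 7 in liver. The causes were not tested, except that fewer arrays enter when a time is left out. The count for a difference of rhythm between liver and brown fat, 1, became 0 with the mean of probes and was 0 whenever a harvest time was left out. With the mean of probes, the Tubb2b level difference turned to -0.66 for liver minus inguinal fat and -0.15 for liver minus brown fat. Age calls of members stayed at 0 under all settings run. Without harvest time as a replicate block they were 0 as well, and the Fam110c difference in inguinal fat was 0.55 (adjusted p = 0.0937, limma). Over all genes the rhythm count ranged from 0 to 12 in inguinal fat (main 9), 6 to 57 in brown fat (35) and 53 to 697 in liver (320), and the age count from 0 to 752, 1 to 57 and 167 to 968 (670, 38 and 636). The array of old inguinal fat at 4 h was left out after the data were seen. Values near background, such as Fam110c in brown fat and the dimmer probes, are limited by signal.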
